A study of Mus musculus with 55 samples.

Results

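Mouse embryonic stem (ES) cells in which CTCF can be removed were compared between asynchronous culture and mitosis, both in the presence of the auxin IAA. The comparison used 6 of the 55 libraries of the series, chosen by their labels: 3 of asynchronous and 3 of mitotic CTCF-AID cells treated with IAA, paired by replicate number, with the pre-mRNA level of 10237 genes in each. CTCF-AID cells derive from E14Tg2a and are a single clone in which the endogenous CTCF protein carries an auxin-inducible degron, so that IAA leads to its degradation. All cells were kept in serum with LIF. The asynchronous cells received 0.5 mM IAA for 4 h and no cell cycle inhibitor. The mitotic cells were treated with the CDK1 inhibitor RO-3306 at 10 µM for 4 h and then with nocodazole, which blocks spindle assembly, at 50 ng/ml for 4 h, with 0.5 mM IAA in the last 2 h, and were collected by shake-off. Stage, both inhibitors, the shake-off and the length of the IAA treatment therefore go together in this comparison and cannot be told apart. The same 2 stages without IAA, with 3 libraries each, served to ask which differences depended on IAA. All 12 libraries entered 1 fit, so SEs and p-values draw on the spread in cells with and without IAA. The study's methods call the replicates independent without naming what was separate, and p-values measure the spread between these libraries only.

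Mitotic chromosomes are condensed, most transcription factors and RNA polymerase II leave them, and transcription falls to a low level until the cells divide. CTCF, a zinc finger protein that binds DNA and stops loop extrusion by cohesin, stays on part of its sites in mitotic ES cells, which led the study to test its role when transcription resumes. A pre-mRNA has its introns until splicing, which follows synthesis quickly, and its level tracks recent transcription more closely than that of the mRNA. An intron-poor gene gives little that separates the unspliced from the spliced form, which bears on several genes below. Levels are given in TPM, a length-corrected share of all transcripts of a library as set by the authors, which is a relative unit: a change in the total amount of RNA per cell would not be seen in it. In bulk samples a lower level may also come from fewer cells that express a gene or from less RNA in each, which cannot be told apart.

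The cells carried ES cell markers at both stages. Of 8 such genes, 7 were listed, and their summed level was between 62.7 and 104 TPM in the asynchronous and between 38.9 and 69.6 TPM in the mitotic libraries. Of 28 markers of differentiated lineages, 11 were listed, with summed levels of 4.29 to 15.6 and 4.68 to 7.33 TPM. Of 16 fibroblast markers, 6 were listed, with 11.3 to 14.9 and 7.43 to 11.4 TPM (the fibronectin gene Fn1 alone had 3.68 to 8.92 TPM). For the 2-cell-like state, 5 of 18 genes were listed, with 9.21 to 14.9 and 8.97 to 14.4 TPM. Ctcf pre-mRNA, which does not report on the degradation of the protein, stood at 7.52, 7.77 and 10.9 TPM in asynchronous and at 6.41, 6.10 and 7.18 TPM in mitotic cells. These groups did not overlap, with a log2 difference of 0.35 ± 0.08 (SE, n = 3 pairs, limma adjusted p = 0.0053), although it was not called once every library was set to the same total (adjusted p = 0.070) or without the replicate block (adjusted p = 0.164).

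The libraries of each stage differed in their overall level. The listed genes summed to 21393 to 27153 TPM in asynchronous and to 17777 to 22522 TPM in mitotic libraries. Values in each library moved in steps, and the size of the step, taken as a library factor, was 1.84 to 1.97 hundredths of a TPM in asynchronous and 2.13 to 2.45 in mitotic libraries, without overlap. What the factor stands for is not given in the sources used here, and TPM hold no read counts, so that the depth of the libraries is unknown. Replicate 2 stood apart from replicates 1 and 3, with Spearman's rho across genes of 0.933 to 0.954 against 0.975 to 0.982 within stages. Deviations of equal-numbered libraries correlated at r = 0.46 to 0.69 in all 3 pairs across the stages, and the replicate number was kept as a block.

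More of the listed genes were higher than lower in asynchronous cells, and most differences were small. All log2 differences are of log2(TPM + 1), and the added 1 shrinks them in genes with low TPM. They are therefore not ratios of TPM, and an order by size holds on this scale only. On log2(TPM + 1), 4982 of 10237 genes, 48.7%, were higher and 859, 8.39%, were lower in asynchronous cells at an adjusted p under 0.05 (limma), and 4396 were not called. The authors listed a gene for its level in asynchronous or released cells and not for its level in mitosis, a choice that favours genes higher in asynchronous cells, so that these counts, shares and the median describe the listed genes only. With a threshold of 0.5 TPM on the group means, 955 listed genes were above it in asynchronous cells alone and 121 in mitotic cells alone. Of the 7977 genes above it in both, 3784 were higher and 709 lower, with a median difference of 0.15. The median difference over all genes was 0.15, with quartiles of 0.01 and 0.29. The median of the single pairs was 0.11, 0.16 and 0.16, which averages 0.14 ± 0.026 (SD, n = 3), and all 3 pairs were positive. The exact two-sided permutation test of the library medians, which leaves the pairing out, gave p = 0.1, the smallest it can give with 3 against 3. Among the higher genes 779 exceeded 0.5 and 81 exceeded 1, and among the lower genes 96 were below -0.5 and 13 below -1. The groups did not overlap for 3222 of the genes called higher and 400 of those called lower, against 3411 and 450 in all genes.

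The split between higher and lower genes rested on how the libraries were scaled. With every library set to the same total, 2824 genes were higher and 2169 lower, and the median moved to 0.03. With every value divided by the library factor, 6774 were higher and 226 lower, and the median moved to 0.28. Higher genes thus made up 85.3% of the calls as deposited, 56.6% at equal totals and 96.8% after division by the factor. Without the replicate block, 1658 were higher and 166 lower, and without replicate 1, with the block, 3768 were higher and 439 lower. With only the 6 libraries with IAA in the fit, 4494 were higher and 698 lower. A small difference is best read against the median of 0.15. Genes named below by rule and without a remark kept the direction and the call of their difference between stages with IAA under every scaling, pseudocount and filter, without the block, in wider and narrower fits and without any replicate.

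**Figure D1:**
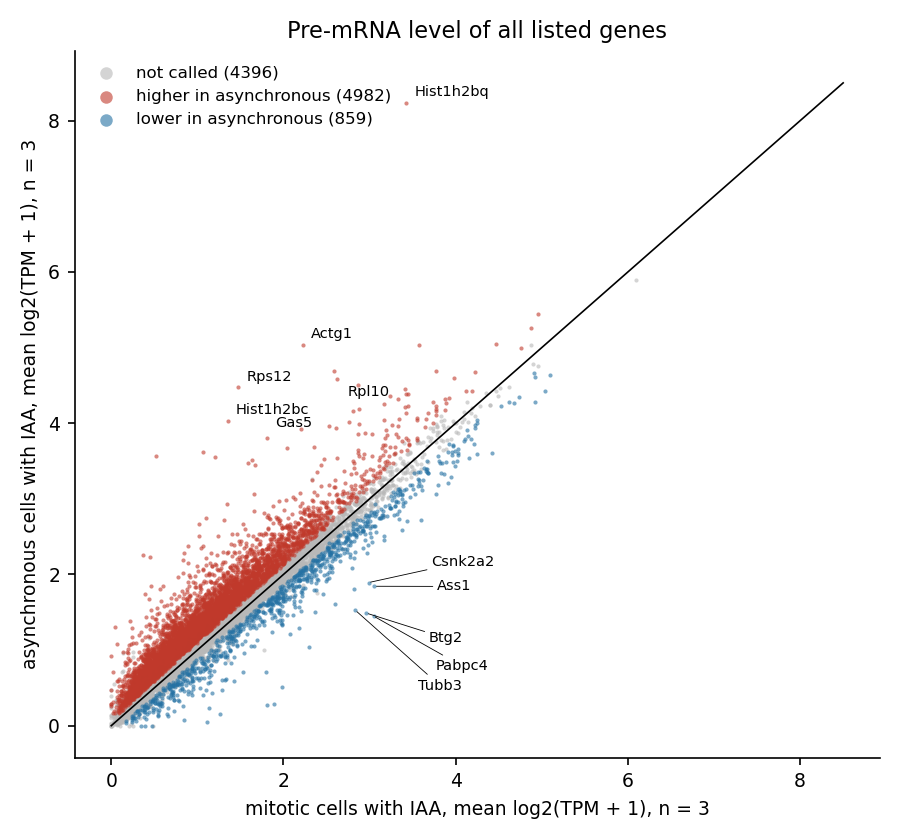
Mean log2(TPM + 1) of 10237 genes in mitotic (x axis) and asynchronous (y axis) CTCF-AID cells with IAA, 3 libraries each, with genes called higher in asynchronous cells in red (4982), lower in blue (859) and not called in grey (4396), and with the line of equal levels. Most points lie close above the line, and Hist1h2bq stands far above it.

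The 10 genes furthest above zero, at higher levels in asynchronous cells, were 2 histone H2B genes, 5 ribosomal protein genes, the cytoplasmic actin gene Actg1, the noncoding snoRNA host Gas5 and 2410002F23Rik. They were picked by size among called genes that moved the same way in all pairs, with a mean of at least 1 TPM, so that their differences are a description. Hist1h2bq, on the minus strand of chromosome 13 from 21806612 to 21810197, encodes a core histone made for newly replicated DNA. Its level was 317, 328 and 263 TPM in asynchronous and 9.30, 25.2 and 3.58 TPM in mitotic cells. Every asynchronous library was far above every mitotic one, and the log2 difference of 4.81 ± 0.37 (SE, adjusted p = 2.98e-05) was the largest of all named genes. Hist1h2bc, on the plus strand of chromosome 13 from 23684199 to 23692908, had 16.5, 16.2 and 13.6 TPM in asynchronous and 1.68, 1.72 and 1.28 TPM in mitotic cells. The log2 difference of 2.68 ± 0.18 (adjusted p = 1.73e-05) was close to equal in the 3 pairs, at 2.71, 2.66 and 2.67. Histone genes of this family resemble each other in sequence, and their reads may be shared between copies.

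Ribosomal protein genes are strongly transcribed, short and highly spliced. Rps12 (chromosome 10, 23785183 to 23787275) had 17.6, 21 and 25.8 TPM in asynchronous and 1.32, 3.33 and 1.13 TPM in mitotic cells, a log2 difference of 3.00 ± 0.27 (adjusted p = 5.48e-05). Rpl10, on chromosome X from 74270812 to 74273135, had 21.7, 24.4 and 23.0 TPM against 5.28, 5.83 and 4.46 TPM, and its log2 difference of 1.96 ± 0.08 had the smallest error of the 10. Neither gene's groups overlapped. Rps27, Rpl9 and Rps27a had log2 differences of 2.55, 2.35 and 2.10, again without overlap. In all 5 the annotated exons of any transcript cover most of the gene, from 87.1% in Rps27a to 100% in Rpl9. Rps12 holds 3 snoRNA genes on its own strand and Rpl10 holds 1. The part of exon-covered sequence and of snoRNA in these values was not tested.

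Actg1, which encodes cytoplasmic gamma-actin and lies on chromosome 11 from 120345690 to 120348542, had 25.9, 46.5 and 26.7 TPM in asynchronous cells against 4.11, 6.05 and 1.82 TPM in mitosis. The highest value in each group came from replicate 2, and the groups did not overlap (log2 difference 2.81 ± 0.24, adjusted p = 3.94e-05). Gas5, a noncoding RNA whose introns hold snoRNAs (10 annotated on its strand), had 11.9, 13.3 and 13.8 TPM against 2.30, 2.87 and 2.39 TPM, a log2 difference of 2.00 ± 0.15. For 2410002F23Rik the asynchronous libraries had 9.80, 8.08 and 15.8 TPM, while the mitotic ones had 0.341, 0 and 1.17 TPM. This gene overlaps 4 annotated snoRNA genes on its strand, so reads of either cannot be assigned with certainty. Annotated exons cover 93.2% of Actg1, 91.3% of Gas5 and 93.5% of 2410002F23Rik. The part of spliced RNA in their values was not tested.

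The 10 genes furthest below zero were of mixed function. Many had low levels, where the added 1 weighs most. Over the alternatives, which include smaller pseudocounts, the difference ran from -3.15 to -1.51 in 5730409E04Rik and from -3.20 to -1.36 in Abhd11os. 5730409E04Rik, on chromosome 4 from 126609818 to 126614371, had 0.177, 0.193 and 0.295 TPM in asynchronous and 2.73, 2.50 and 2.95 TPM in mitotic cells, a log2 difference of -1.61 ± 0.10 (adjusted p = 1.44e-05). Pabpc4, which encodes a cytoplasmic poly(A)-binding protein, had 1.55, 1.72 and 1.94 TPM against 7.83, 6.57 and 7.43 TPM (-1.60 ± 0.08). In both genes all mitotic libraries were above all asynchronous ones by a wide gap. Abhd11os, a noncoding gene antisense to Abhd11, had 0.492, 0.0771 and 0.111 TPM in asynchronous and 2.77, 1.81 and 3.02 TPM in mitotic cells (-1.53 ± 0.12). The libraries were stranded, but the strand setting of the counting is not given in the sources used here.

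Btg2, an antiproliferative gene that p53 induces, had 1.22, 4.18 and 0.922 TPM in asynchronous against 5.51, 7.33 and 7.72 TPM in mitotic cells. Replicate 2 was the highest asynchronous library and its pair differed least, by -0.68 against -1.55 and -2.18 (fit -1.47 ± 0.30, adjusted p = 0.00282). Tubb3, a beta-tubulin gene on chromosome 8 from 123411424 to 123422015, had 2.32, 1.14 and 2.36 TPM against 7.26, 4.34 and 7.25 TPM. Its replicate 2 was lowest at both stages, so that the 3 pairs gave -1.31, -1.32 and -1.30 (fit -1.31 ± 0.05). The argininosuccinate synthase gene Ass1 had 2.36, 2.58 and 2.84 TPM in asynchronous and 9.22, 5.56 and 7.59 TPM in mitotic cells (-1.21 ± 0.12). Adprhl2, an ADP-ribose hydrolase gene, had 0.531, 0.636 and 0.738 TPM against 2.55, 1.74 and 3.36 TPM (-1.09 ± 0.11). Asynchronous and mitotic libraries did not overlap in any of the 10 lowest genes. These also hold Mir496a, described with the microRNA genes, and Nle1 and Csnk2a2, described with the comparison to cells without IAA.

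**Figure D2:**
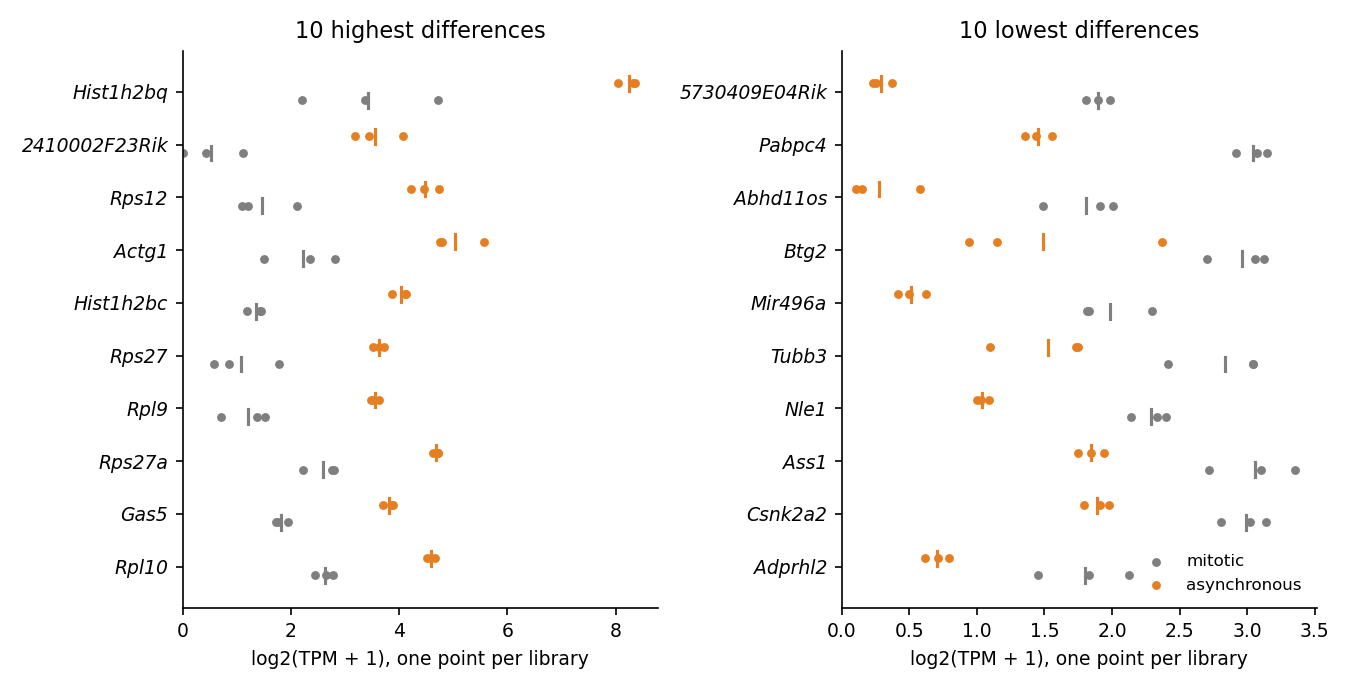
log2(TPM + 1) per library (x axis) of the 10 genes with the highest and the 10 with the lowest difference, asynchronous in orange and mitotic in grey, with a bar at the mean of 3 libraries. The stages are apart in each of the 20 genes, from a log2 difference of 4.81 in Hist1h2bq to -1.61 in 5730409E04Rik.

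The microRNA genes held members called in both directions. A microRNA is cut from a hairpin in a longer transcript, and the values here are those of the annotated hairpin gene, which need not be those of the mature RNA. Of 12 listed microRNA genes 8 (66.7%, against 48.7% of all genes) were higher and 2 lower (16.7%, against 8.39%) in asynchronous cells, with a median log2 difference of 0.45 (0.31 at equal totals) against 0.15 in all genes, while 5 were higher without replicate 1, and 5 higher and 1 lower without replicate 3. The mature sequences of the 3 called microRNA genes with the largest differences, from RefSeq on GRCm38.p6, are given with the seed, bases 2 to 8, in capitals, since the seed sets which messages a microRNA pairs with. No seed is shared among them.
miR-101a-3p (chr4:101346957-101346977, minus strand): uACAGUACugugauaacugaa
miR-34a-5p (chr4:150068473-150068494, plus strand): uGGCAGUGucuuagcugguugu
miR-496a-3p (chr12:109739165-109739186, plus strand): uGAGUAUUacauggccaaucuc

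Mir101a had 4.37, 3.95 and 4.31 TPM in asynchronous and 0.979, 0.907 and 0.676 TPM in mitotic cells, a log2 difference of 1.49 ± 0.09 (adjusted p = 1.34e-05). Mir34a, whose product is a known p53 target that slows the cell cycle, had 4.29, 5.38 and 4.43 TPM against 1.51, 1.37 and 0.383 TPM, which also gave 1.49, with an SE of 0.20. Both genes were high in each asynchronous library and low in each mitotic one. Mir496a went the other way, with 0.413, 0.540 and 0.332 TPM in asynchronous and 2.55, 3.92 and 2.52 TPM in mitotic cells (-1.47 ± 0.11, adjusted p = 2.98e-05). It lies within Mirg, a noncoding host of the imprinted microRNA cluster on chromosome 12. Mirg itself was higher in asynchronous cells, with 5.55, 6.46 and 5.13 TPM against 2.45, 2.94 and 2.34 TPM (0.91 ± 0.07, adjusted p = 2.91e-05). Hairpin genes are short, here 79 bases for Mir496a, 83 for Mir101a and 102 for Mir34a, so that few reads may set the value of each. Mir101a and Mir34a also overlap a gene on their own strand, E130102H24Rik and Gm37795. Reads of an overlapping gene may enter these values, which was not tested. Mir496a has 1 annotated exon, so nothing separates its unspliced from its spliced form. Mir290a and Mir294 of the ES cell microRNA cluster on chromosome 7 were below 1 TPM in every library, with log2 differences of -0.43 and 0.53. Both enter the counts of microRNA genes given above without replicates 1 and 3. Their own values under the alternatives are not given.

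Counts of gene groups are given below with their share of the group, to be read against the 48.7% higher and 8.39% lower of all genes, and no test was run on these shares. The counts rest on the scaling, the block and the replicates: of 72 counts, higher and lower in 36 groups, 48 moved by over 1.5 times at equal totals and 35 after division by the library factor. Without the replicate block 59 did, with 6 pluripotency, 19 spindle and 31 cytosolic ribosomal protein genes left among the higher ones, and without replicate 1, 2 and 3 it was 23, 16 and 25. Of 29 listed pluripotency factors 20 were higher (69.0%) and 2 lower (6.90%), with a median log2 difference of 0.29 (0.14 at equal totals, with 13 higher and 5 lower). Dppa5a, an ES cell RNA-binding protein gene, had 16.9, 13.2 and 12.8 TPM in asynchronous against 4.30, 3.19 and 3.36 TPM in mitotic cells (1.73 ± 0.11). Tdgf1, which encodes the Nodal coreceptor Cripto, had 18.6, 8.5 and 19.6 TPM against 5.73, 3.06 and 6.06 TPM (1.44 ± 0.08). Replicate 2 was lowest at both stages in Tdgf1, and neither gene's groups overlapped. Klf4 had 3.09, 3.01 and 3.45 TPM against 1.38, 1.08 and 1.80 TPM (0.80 ± 0.08). Lin28a, an RNA-binding protein gene that blocks let-7 maturation, was lower in asynchronous cells, with 3.07, 3.80 and 4.20 TPM against 6.26, 6.35 and 5.59 TPM (-0.60 ± 0.10).

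Pou5f1, Nanog and Esrrb encode core factors of the ES cell state. Pou5f1 had 10.3, 6.84 and 11.8 TPM in asynchronous and 11.6, 6.54 and 10.6 TPM in mitotic cells. These ranges overlapped almost fully, and the log2 difference of 0.01 ± 0.07 was not called (adjusted p = 0.897), while at equal totals it was -0.19 and called (adjusted p = 0.00776). Nanog had a log2 difference of 0.29 ± 0.07 and Esrrb of 0.25 ± 0.08, both called as deposited, but at equal totals the adjusted p was 0.21 for Nanog and 0.24 for Esrrb. Both calls were also lost without the block, in the fit of 36 libraries and without replicate 2, and that of Esrrb without any single replicate. Of 15 genes of the FGF-ERK pathway's feedback, 10 were higher (66.7%) and none lower (1 without replicate 3), with a median of 0.32 (0.17 at equal totals, with 7 higher and 2 lower). The early response gene Egr1, counted in that list, had 8.56, 11.1 and 11.7 TPM against 2.04, 1.89 and 2.41 TPM (1.87 ± 0.12, adjusted p = 1.64e-05). Annotated exons cover 86.9% of Egr1, and the part of spliced RNA in its values was not tested. Among 18 immediate early genes 4 were higher and 4 lower (22.2% each), with Egr1 and Btg2 at the ends. Their counts became 4 and 2 without replicate 1, 2 and 1 without replicate 3, and 9 and 1 after division by the library factor.

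Of 68 spindle, kinetochore and cytokinesis genes 51 were higher (75%) and 3 lower (4.41%), with a median of 0.30 (0.15 at equal totals, with 35 higher and 9 lower). Hjurp, the chaperone that loads the centromeric histone, had 13.3, 12 and 15.6 TPM against 7.17, 5.54 and 7.59 TPM (0.92 ± 0.06). Plk1, the polo-like kinase of mitotic entry, had 2.79, 2.76 and 3.67 TPM against 0.873, 0.564 and 0.923 TPM (1.19 ± 0.09, adjusted p = 2.98e-05). Both were above every mitotic library in every asynchronous one. Pkmyt1, whose kinase holds CDK1 inactive, was lower in asynchronous cells, with 1.04, 0.887 and 1.31 TPM against 2.41, 2.01 and 2.09 TPM (-0.61 ± 0.06). The list of mitotic kinases, cyclins and APC/C genes counted 21 higher (53.8%) and 3 lower (7.69%, and 1 gene without replicate 1) of 39, which became 9 higher and 10 lower at equal totals.

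For entry into S phase, 12 of 26 cyclin, CDK, E2F and Rb genes were higher (46.2%) and 2 lower (7.69%), with a median of 0.14 (0.02 at equal totals, with 9 higher and 5 lower). Cdk4 had 4.25, 4.30 and 4.76 TPM in asynchronous and 1.58, 2.08 and 1.91 TPM in mitotic cells (0.93 ± 0.08). Ccnd1, its cyclin partner, had 3.13, 2.56 and 3.39 TPM against 1.62, 1.03 and 1.15 TPM (0.83 ± 0.09), and Myc had 1.71, 1.02 and 1.75 TPM against 0.617, 0.490 and 0.653 TPM (0.64 ± 0.10). None of these 3 genes overlapped between stages. Of 53 replication genes 20 were higher (37.7%, and 13 genes without replicate 3) and 4 lower (7.55%) with a median of 0.11, which was -0.04 at equal totals, where 11 were higher and 16 lower. Thymidine kinase, Tk1, which supplies nucleotides in S phase, had 6.22, 4.30 and 8.63 TPM against 2.34, 1.72 and 2.45 TPM (1.18 ± 0.12). Of the 5 listed replication-dependent histone genes, 3 were higher (60.0%) and none lower (1 without replicate 2).

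Among 18 genes of CTCF, cohesin and their partners 10 were higher (55.6%) and 1 lower (5.56%, and none without replicate 1 or 2), with a median of 0.17 close to that of all genes, while 6 were higher without replicate 2, and at equal totals 1 was higher and 5 lower with a median of 0.02. Without the block none of the 18 was called. Rad21, the cohesin subunit that separase cuts, had 4.76, 4.80 and 6.18 TPM against 3.83, 2.94 and 4.48 TPM (0.40 ± 0.06, adjusted p = 0.00074), and was not called without the block (adjusted p = 0.12). Of 7 condensin genes, which compact mitotic chromosomes, 6 were higher (85.7%, and 3 genes without replicate 2 or 3) and none lower, with a median of 0.18 that was 0.0042 at equal totals. Ncapg had 3.50, 2.99 and 3.82 TPM against 2.30, 1.81 and 2.59 TPM (0.46 ± 0.04). The 2 listed clustered protocadherin genes, well known CTCF targets, were not called, and 1 was higher without replicate 2.

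Growth and metabolism genes split by group. Of 76 cytosolic ribosomal protein genes 45 were higher (59.2%) and 10 lower (13.2%, and 3 genes without replicate 1), with a median of 0.39 (0.18 at equal totals, with 38 higher and 18 lower), the range running from -0.65 for Rps16 to 3.00 for Rps12. Rps16 stood at 11.1 TPM in each asynchronous library and at 19.2, 17.4 and 17.4 TPM in mitotic cells (-0.65 ± 0.07), against the direction of most of its group. Ribosome biogenesis genes had 15 higher (25.4%, and 9 genes without replicate 2, 7 without replicate 3) and 18 lower (30.5%, and 7 genes without replicate 1) of 59, with a median of -0.09, which was -0.28 at equal totals, with 6 higher and 34 lower, and 0.12 after division by the library factor, with 23 higher and 2 lower. Without replicate 1 their median was -0.0035. Ddx21, a nucleolar helicase gene, had 5.57, 5.28 and 6.21 TPM against 9.50, 8.14 and 9.91 TPM (-0.60 ± 0.06), while the nucleolar GTPase gene Gnl3 had 11.6, 8.48 and 12.2 TPM against 5.83, 5.88 and 3.96 TPM (0.92 ± 0.19). Gnl3 is another snoRNA host, with 3 on its strand, and annotated exons cover 90.8% of it.

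Of 21 glycolysis genes 15 were higher (71.4%, and 9 genes without replicate 1) and 2 lower (9.52%, and 0, 1 and 0 genes without replicate 1, 2 and 3), with a median of 0.35 (0.17 at equal totals, with 7 higher and 2 lower). Gapdh had 2.60, 2.31 and 2.58 TPM in asynchronous and 0.703, 0.662 and 0.158 TPM in mitotic cells (1.23 ± 0.21, adjusted p = 0.0011). Annotated exons cover 87.0% of Gapdh, and the part of spliced RNA in its values was not tested. Oxidative phosphorylation had 30 higher (41.1%) and 8 lower (11%, and 4 genes without replicate 3) of 73 genes with a median of 0.13, which was -0.01 at equal totals, with 18 higher and 21 lower. Its member Cox8a, a subunit of cytochrome c oxidase, was lower in asynchronous cells, with 3.76, 2.89 and 5.26 TPM against 6.56, 5.71 and 8.51 TPM (-0.69 ± 0.10). Cholesterol synthesis counted 15 higher (51.7%) and 2 lower (6.90%, and none without replicate 1) of 29 with a median of 0.18 (0.02 at equal totals, with 9 higher and 7 lower), led by the farnesyl diphosphate synthase gene Fdps (0.89 ± 0.06).

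Of 29 heat shock chaperone genes 10 were higher (34.5%) and 6 lower (20.7%, and 3 genes without replicate 1), with a median of 0.08 that was -0.09 at equal totals, with 7 higher and 12 lower. Hsp90aa1 had 7.24, 5.88 and 7.58 TPM against 3.19, 2.52 and 2.88 TPM (1.03 ± 0.09), and the mitochondrial chaperonin gene Hspd1 had 17.1, 18.6 and 19.8 TPM against 28.8, 28.4 and 30.6 TPM (-0.64 ± 0.08). Both were without overlap, in opposite directions. p53 target genes had 9 higher (30.0%) and 7 lower (23.3%) of 30 (1, 12 and 2 lower without replicate 1, 2 and 3), with a median of -0.03 that was -0.15 at equal totals with 6 higher and 12 lower, 0.12 after division by the library factor with 11 higher and 3 lower, and 0.05 without replicate 1. The integrated stress response had 17 higher (54.8%) and 3 lower (9.68%) of 31, with a median of 0.25 (0.11 at equal totals, with 13 higher and 6 lower) and with Stc2 highest at a mean of at least 1 TPM (1.09 ± 0.18). Of 79 SR, hnRNP and SF3 genes 26 were higher (32.9%) and 9 lower (11.4%, and 4 genes without replicate 1 or 3) with a median of 0.09, which was -0.10 at equal totals with 16 higher and 32 lower. The splicing factor genes Srsf2 and Srsf1 differed most, with 37.1, 33.6 and 25.8 against 11.2, 14.1 and 8.20 TPM in Srsf2 (1.46 ± 0.15) and 10.1, 12.1 and 13.7 against 4.49, 3.85 and 3.99 TPM in Srsf1 (1.34 ± 0.13).

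In the largest family, the 283 listed Zfp genes, 178 were higher (62.9%) and 9 lower (3.18%, and 3 genes without replicate 1, 5 without replicate 3), with a median of 0.22 (0.11 at equal totals, with 116 higher and 27 lower). Zfp771 had 4.72, 3.87 and 4.30 TPM against 1.62, 1.94 and 1.91 TPM (0.91 ± 0.09). Nuclear pore genes had 10 higher (34.5%, and 4 genes without replicate 3) and 7 lower (24.1%, and 1, 4 and 2 without replicate 1, 2 and 3) of 29 with a median of 0.03, which was -0.13 at equal totals with 2 higher and 15 lower, 0.16 after division by the library factor with 13 higher and none lower, -0.0017 over genes with at least 1 TPM and -0.02 without replicate 2. Polymerase II and general factor genes had 24 higher (38.1%) and 12 lower (19%) of 63, which became 15 and 6 without replicate 1 and 13 and 6 without replicate 3 (median 0.09, and -0.06 at equal totals with 10 higher and 21 lower), with Polr2l, a subunit shared by RNA polymerases, at 1.65, 1.46 and 1.53 against 3.07, 2.70 and 3.06 TPM (-0.63 ± 0.06). Tubulin and nocodazole response genes had 8 higher (47.1%) and 6 lower (35.3%) of 17 with a median of 0.19, which was 0.03 at equal totals with 4 higher and 6 lower and 0.36 after division by the library factor with 9 higher and 3 lower. Among them Tubb3 was lowest and the alpha-tubulin gene Tuba1a (0.74 ± 0.09) highest. DNA methylation, Polycomb, imprinted, lamina and mitochondrial ribosome genes had medians of 0.22, 0.12, 0.23, 0.19 and 0.17, which at equal totals were 0.076, -0.0072, 0.096, 0.041 and 0.039. Proteasome genes had 12 higher (30.0%) and 10 lower (25%) of 40, with a median of 0.04 that was -0.10 at equal totals, with 7 higher and 18 lower, and 0.20 after division by the library factor, with 20 higher and none lower. Without replicate 2 their median was 0.019.

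**Figure D3:**
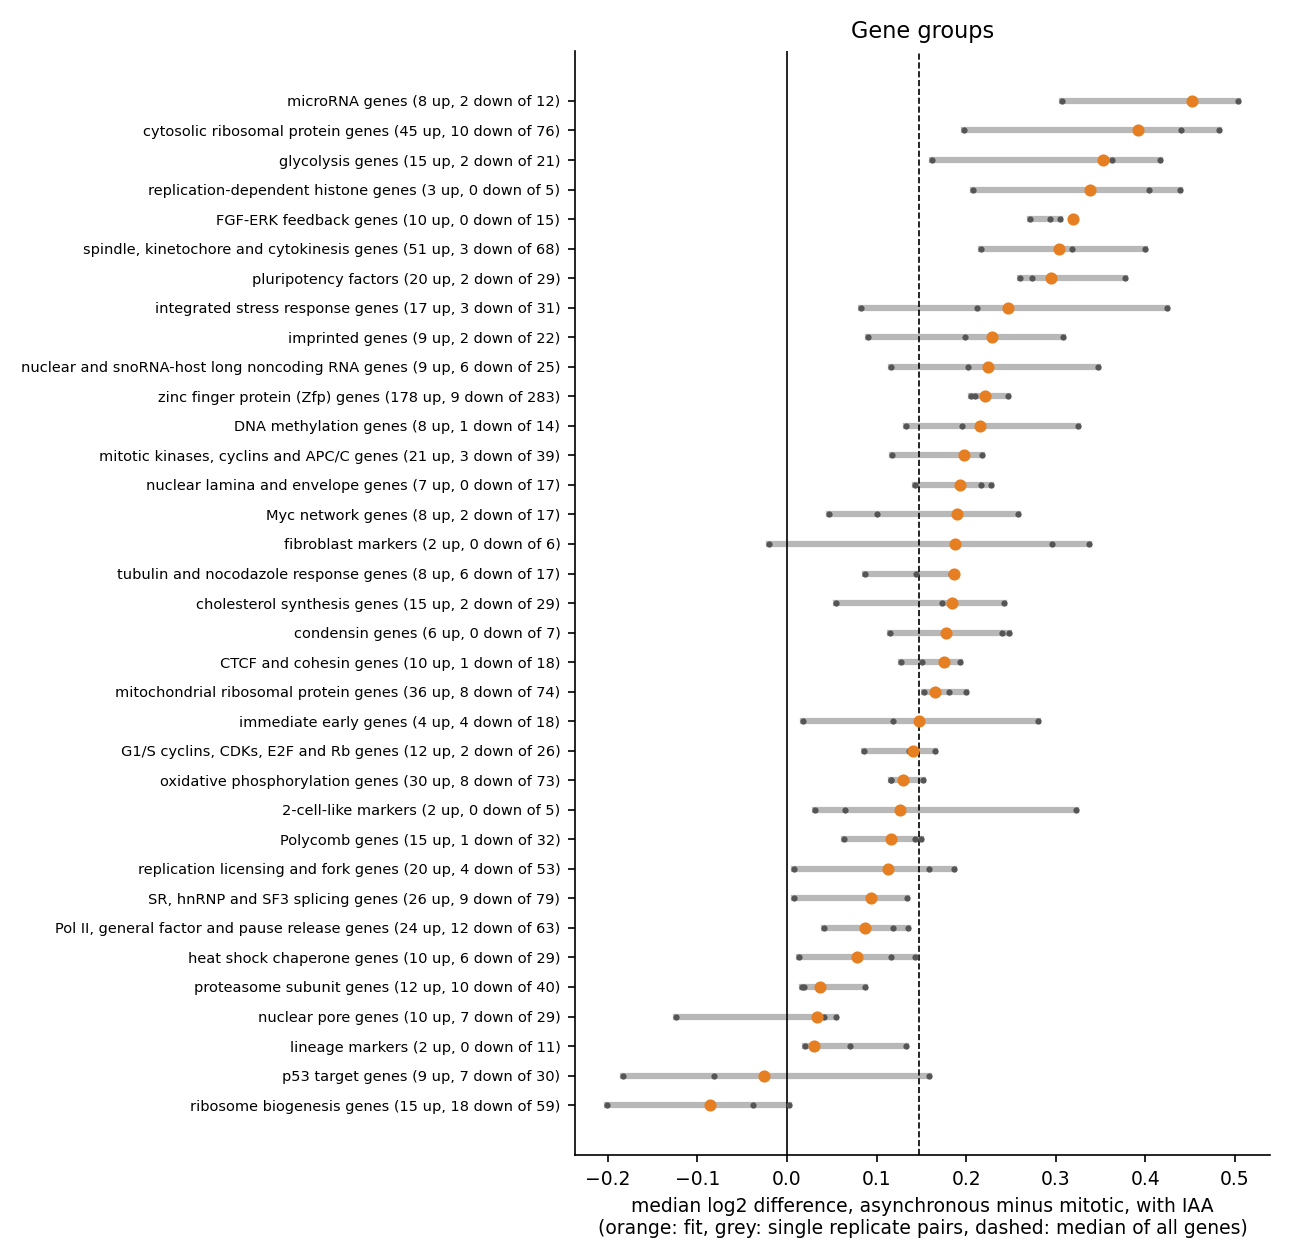
Median log2 difference, asynchronous minus mitotic with IAA (x axis), of each gene group with at least 5 listed genes, from the fit (orange) and in each replicate pair (grey points, bar from lowest to highest), with the median of all genes, 0.15, dashed. Groups run from -0.09 in ribosome biogenesis to 0.45 in microRNA genes, and at equal totals the medians of the lineage marker, replication, oxidative phosphorylation, proteasome, heat shock, Polycomb, polymerase II, nuclear pore and splicing groups fall below 0, while after division by the library factor those of ribosome biogenesis and p53 targets lie above 0.

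The difference varied with the gene's length and level. Genes were ranked and cut into equal classes of 2045 genes. In the class with the shortest span, up to 8134 bases, the median log2 difference was 0.22, in genes of 29850 to 60639 bases it was 0.11 (-0.02 at equal totals) and in the longest it was 0.13. The class with the most exon-covered sequence, above 41.1%, also had 0.22. By mean level, the highest class, above 3.08 TPM, had a median of 0.07 with 695 higher and 370 lower genes, whereas the class from 0.592 to 1.09 TPM had 0.19 with 1182 higher and 107 lower. At equal totals these medians were -0.12 and 0.09, and after division by the library factor 0.28 and 0.30, where the class of lowest level, up to 0.592 TPM, was lowest with 0.19. Genes on chromosome X had a median of 0.16 and those on autosomes of 0.15. The 205 genes that hold a snoRNA gene had a median of 0.10, which was -0.04 at equal totals and 0.25 after division by the library factor, with 85 higher and 36 lower as deposited. The part of level and length in these values was not tested.

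Cells released from nocodazole with IAA, with 2 libraries at each of 20, 40, 50, 60, 90 and 120 min, showed where asynchronous levels lie in the course. These levels are given as they stand, since the mitotic libraries are those of the comparison. The times of 20, 40, 60 and 120 min had replicates 1 and 2 and those of 50 and 90 min replicates 1 and 3, so each mean is set beside the asynchronous mean of the same 2 replicates, and steps between the 2 sets of times mix time with replicate. Of the 10 highest genes, none had reached that mean at 20 min, 1 at 40, 3 at 50, 3 at 60, 2 at 90 and 1 at 120 min. Against the mean of all 3 asynchronous libraries the counts at 50, 60 and 90 min were 2, 4 and 1. Hist1h2bc had a mean of 32.0 TPM at 50 min, against 1.48 TPM in mitotic and 15.1 TPM in asynchronous cells of replicates 1 and 3. At 120 min it had 8.54 TPM, against 1.70 and 16.4 TPM in replicates 1 and 2. Hist1h2bq had its highest mean after release, 159 TPM, at 90 min and stayed under its asynchronous mean of the same replicates, 290 or 322 TPM, at every time.

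Of the 10 lowest genes, none had come down to the asynchronous mean of the same replicates by 60 min, while Mir496a had at 90 and Pabpc4 at 120 min. In replicates 1 and 2, Btg2 had a mean of 6.42 TPM in mitosis, 34 TPM at 40 min and 13.3 TPM at 120 min, against 2.70 TPM in asynchronous cells. Tubb3 had 5.80 TPM in mitosis, 8.43 TPM at 40 min and 3.02 TPM at 120 min, against 1.73 TPM, in the same replicates. Ass1 kept levels of 5.29 to 7.28 TPM throughout the course, against 2.47 or 2.60 TPM in asynchronous cells. Nle1 stood at 3.73 TPM in mitosis, 2.44 TPM at 120 min and 1.02 TPM in asynchronous cells of replicates 1 and 2. The other 8 genes stayed above these asynchronous means throughout the 120 min covered.

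**Figure D4:**
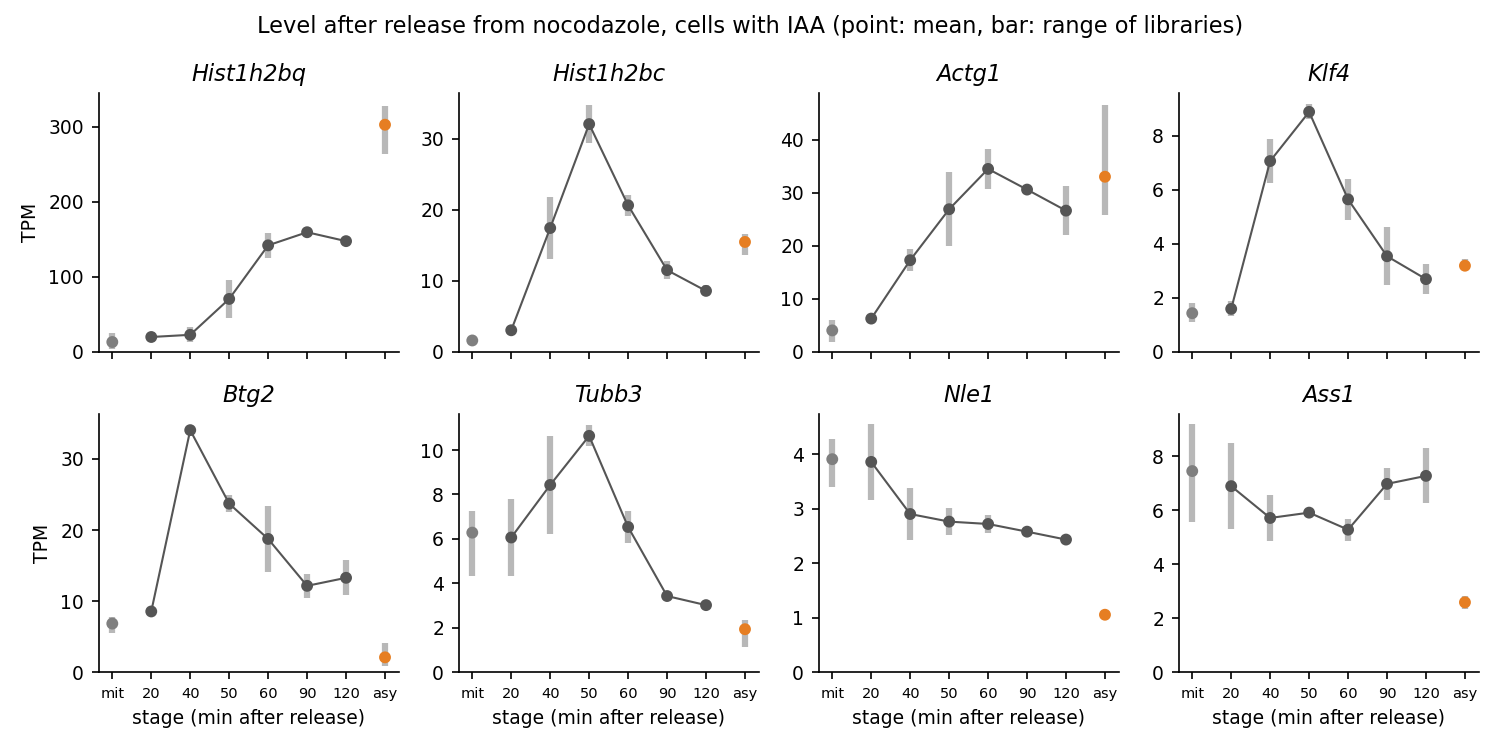
TPM (y axis) of 8 genes in mitotic cells (n = 3), at 20 to 120 min after release (n = 2 each) and in asynchronous cells (n = 3), all with IAA, as the mean (point) and the range of libraries (bar), with replicates 1 and 2 at 20, 40, 60 and 120 min and replicates 1 and 3 at 50 and 90 min. Hist1h2bc peaks at 32.0 TPM and Btg2 at 34 TPM within 50 min, whereas Hist1h2bq stays below its asynchronous level of 303 TPM.

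Without IAA the same stages gave a similar picture. Here 4287 genes, 41.9%, were higher and 894, 8.73%, were lower in asynchronous cells, with a median of 0.12. At equal totals 2576 were higher and 2130 lower, with a median of 0.027, and after division by the library factor 6666 and 172. Without the block 981 were higher and 120 lower. Leaving out replicate 1 gave 2734 higher and 444 lower, and leaving out replicate 3 gave 2198 and 557. The values that follow are as deposited. The median was positive in all 3 pairs, at 0.11, 0.080 and 0.16, while the library medians overlapped between the stages (exact permutation p = 0.2, without the pairing). Of the genes higher with IAA 3848 were also higher without it, 77.2% of the first list and 89.8% of the second. Of those lower with IAA 627 were also lower without it, 73.0% and 70.1%. Calls went in opposite directions in 34 genes, of which 30 were lower with and higher without IAA and 4 the reverse. Across the 10237 genes the differences with and without IAA had r = 0.90 and rho = 0.88. These come from different libraries of the same replicate numbers, and genes are not independent replicates. Against CCNA-GFP cells, a reporter line of the same origin with 9574 genes in common, r was 0.69 and rho 0.61, and the median difference was 0.33 in CCNA-GFP cells and 0.15 in CTCF-AID cells with IAA.

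A test of the difference itself, asynchronous minus mitotic with IAA less the same without, called 42 genes. With IAA the difference was higher in 11 genes, 0.107% of those tested, and lower in 31, 0.303%, at an adjusted p under 0.05 (limma), while 662 genes had an unadjusted p under 0.05. Few of these calls outlasted the loss of a replicate: none was left without replicate 1 or without replicate 3, and 6 without replicate 2 (1 higher and 5 lower, all among the 42). The genes with an unadjusted p under 0.05 were then 431, 504 and 609, in that order. None was called without the replicate block, where 164 genes had an unadjusted p under 0.05. At equal totals 16 were higher and 50 lower, and after division by the library factor 7 and 16.

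In nearly all of these genes the asynchronous cells with IAA stood apart from the other 3 groups. They had the lowest of the 4 group means in 30 of the 31 lower genes and the highest in all 11 higher genes. In the lower genes the median difference between cells with and without IAA was -0.63 on the log2 scale in asynchronous and -0.09 in mitotic cells. In the higher genes it was 0.52 and 0.09. Over all genes these differences had medians of 0.01 and -0.01, with SDs of 0.11 and 0.065. The genes were called on a contrast of these same means, so the values describe them and are no further evidence. The IAA treatment lasted 4 h in asynchronous and 2 h in mitotic cells, and stage and duration cannot be told apart here.

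Nle1, on chromosome 11 from 82900768 to 82908411, had the most negative value. It takes part in ribosome biogenesis but was not in the list of that group counted above. It stood at 1.04, 1.00 and 1.12 TPM in asynchronous cells with IAA and at 4.35, 4.21 and 5.40 TPM without. In mitosis it had 4.05, 3.41 and 4.28 TPM with IAA and 4.85, 3.71 and 4.89 TPM without. Only the first of these groups was low, and the log2 difference between stages was -1.25 with and 0.05 without IAA, apart by -1.30 ± 0.09 (SE, adjusted p = 0.000712, over the alternatives 3.59e-05 to 0.193). Csnk2a2, a catalytic subunit of casein kinase 2 on chromosome 8 from 95446096 to 95490039, had 2.46, 2.93 and 2.77 TPM in asynchronous cells with IAA against 6.93, 6.30 and 8.6 TPM without. Its mitotic levels of 7.13, 5.98 and 7.82 TPM with and 7.18, 7.40 and 8.75 TPM without IAA overlapped each other. The stages differed by -1.10 with and -0.09 without IAA, apart by -1.01 ± 0.12 (adjusted p = 0.0122, over the alternatives 0.000187 to 0.749).

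Of the 20 highest and lowest genes, Nle1, Csnk2a2 and Pabpc4 were called here. Pabpc4 had asynchronous means of 1.74 TPM with and 3.75 TPM without IAA. Its stages differed by -1.60 with and -0.95 without IAA, apart by -0.64 ± 0.11 (adjusted p = 0.0442). Like every call for the difference between arms, this one was lost without replicate 1, without replicate 3 and without the block. The size of this value under the alternatives is not given.

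Ttc5, a p300 cofactor that also takes part in tubulin mRNA decay, had 0.787, 0.597 and 0.977 TPM in asynchronous cells with IAA and 2.10, 1.82 and 2.62 TPM without. The stages differed by -0.56 with IAA and by 0.23 without (adjusted p = 0.002), both called, and thus were apart by -0.78 ± 0.06. Tab1, an adaptor of the kinase TAK1, showed the same reversal, with 0.866, 1.12 and 1.29 TPM against 2.45, 2.50 and 3.21 TPM in asynchronous cells (-0.40 with and 0.35 without IAA, apart by -0.75 ± 0.09). Rpl36, a ribosomal protein gene, had 10.8, 14 and 14.7 TPM in asynchronous cells with and 19.4, 24.0 and 30.0 TPM without IAA. With IAA these overlapped the mitotic levels of 8.20, 10.1 and 11.2 TPM, and its log2 difference of 0.38 was called (adjusted p = 0.0011) but not without the block (adjusted p = 0.183). Without IAA the difference was 1.09, apart by -0.71 ± 0.09. Opposite calls in the arms, as in Ttc5 and Tab1, were found in 22 of the 31 lower genes.

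On the higher side, Gys1, which encodes muscle glycogen synthase, had 3.29, 2.12 and 4.44 TPM in asynchronous cells with IAA and 0.911, 0.760 and 1.21 TPM without. In mitosis it had 1.02, 0.931 and 1.37 TPM with and 0.718, 0.659 and 0.906 TPM without IAA, so that a single group stood out. The stages differed by 0.99 with and 0.15 without IAA, apart by 0.84 ± 0.14 (adjusted p = 0.04, over the alternatives 0.00137 to 1.0). Prkag1, a regulatory subunit of the energy sensor AMPK, had 3.05, 2.68 and 4.13 TPM against 1.28, 1.02 and 1.72 TPM in asynchronous cells with and without IAA (0.66 ± 0.08). Lsm11, a subunit of the U7 particle that processes histone mRNA, had 3.46, 3.51 and 4.76 TPM against 1.65, 1.98 and 1.98 TPM (0.59 ± 0.10). Nabp2, a single-stranded DNA binding protein gene, had 2.32, 1.89 and 2.84 TPM against 1.25, 1.24 and 1.49 TPM (0.55 ± 0.09), and Dtwd2 on chromosome 18 had 3.66, 3.74 and 4.61 TPM against 1.64, 1.52 and 2.15 TPM (0.60 ± 0.09). In all 5 genes the asynchronous libraries with IAA were above all those without.

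**Figure D5:**
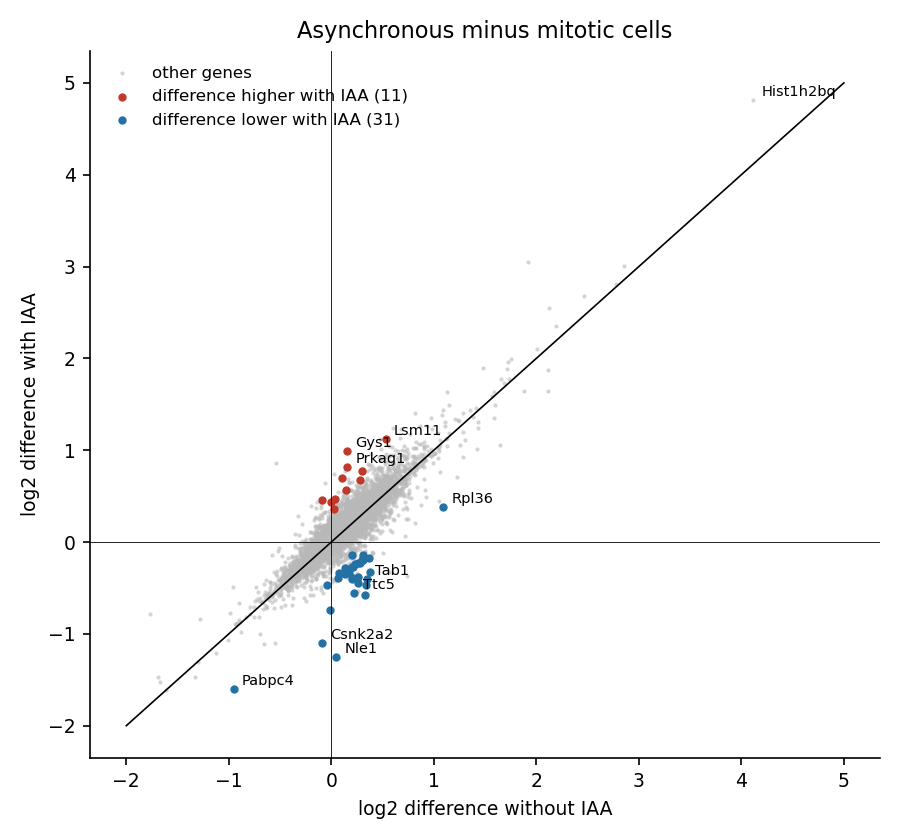
log2 difference between asynchronous and mitotic CTCF-AID cells without IAA (x axis) and with IAA (y axis) for 10237 genes, with the line of equal values, and with genes called for the difference between the arms in red (11, higher with IAA) and blue (31, lower with IAA). Most genes follow the line (r = 0.90), and most blue genes lie below 0 on the y axis and above 0 on the x axis.

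The promoters of these genes were searched for the core of the CTCF motif, written CCNNNAGNNGGC, on both strands of the window from 250 bases before to 50 after the gene start (RefSeq, GRCm38.p6, the first start listed for each gene). The letters were found in 8.56% of all 27025 promoters and in 13.4% of the 8199 promoters matched to listed genes. Of the genes with a lower difference, 26 had a promoter in the table and 9 of these held the motif, 34.6%. Of those with a higher difference it was 4 of 9, 44.4%. No test was run on these shares, and a match of letters does not show binding. Among the genes described above, Gys1 holds 1 match and Lsm11 holds 2, and no match was found in the windows of Nle1, Csnk2a2, Ttc5 and Prkag1. Nabp2 holds it at a further listed start but not at the first. The promoters of Gys1 and Lsm11 are shown, with that of Dennd6b, the gene with the most negative difference among the 9, chosen after its values were seen. Capitals mark the motif, which in these 3 promoters reads on the strand opposite to the gene.
Gys1 (chr7:45434589-45434888, plus strand): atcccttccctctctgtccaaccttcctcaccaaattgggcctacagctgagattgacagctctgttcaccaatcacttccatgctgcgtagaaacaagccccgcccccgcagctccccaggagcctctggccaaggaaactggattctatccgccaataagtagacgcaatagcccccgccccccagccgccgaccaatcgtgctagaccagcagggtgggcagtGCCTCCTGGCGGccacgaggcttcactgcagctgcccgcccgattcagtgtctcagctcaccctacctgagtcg
Lsm11 (chr11:45944886-45945185, minus strand): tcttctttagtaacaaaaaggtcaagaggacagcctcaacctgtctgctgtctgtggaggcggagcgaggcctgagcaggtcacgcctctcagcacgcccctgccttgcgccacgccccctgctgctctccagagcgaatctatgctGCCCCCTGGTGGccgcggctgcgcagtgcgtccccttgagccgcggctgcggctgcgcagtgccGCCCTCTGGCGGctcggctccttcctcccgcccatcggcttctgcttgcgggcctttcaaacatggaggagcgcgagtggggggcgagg
Dennd6b (chr15:89196425-89196724, minus strand): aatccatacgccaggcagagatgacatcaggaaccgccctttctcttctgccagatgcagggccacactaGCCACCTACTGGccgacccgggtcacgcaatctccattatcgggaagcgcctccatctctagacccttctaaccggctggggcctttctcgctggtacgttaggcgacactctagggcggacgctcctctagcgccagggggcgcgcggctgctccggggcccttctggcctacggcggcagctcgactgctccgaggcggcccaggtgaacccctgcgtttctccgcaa

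Dennd6b, a member of the DENN domain family that activates Rab proteins, had a mean of 0.197 TPM in asynchronous cells with IAA and 1.5 TPM without, against 0.785 and 0.981 TPM in mitotic cells. Its difference between stages was -0.58 with and 0.33 without IAA, apart by -0.90 ± 0.12 (adjusted p = 0.0169). The asynchronous cells with IAA were thus again the lowest of the 4 groups. Like every call for the difference between arms, that of Dennd6b was lost without replicate 1, without replicate 3 and without the block. The size of its value under the alternatives is not given.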

How the data were processed

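Per the labels and the study's methods, RNA was depleted of ribosomal RNA and made into stranded paired-end libraries. The authors used STAR on mm10 and then RSEM, for which each Gencode vM12 gene had been given an unspliced isoform, and deposited the TPM of that isoform for genes above 0.5 TPM in asynchronous cells or in several samples after release. RSEM divides reads between isoforms, so exon-rich and overlapping genes are split with less certainty. The table lists 10237 genes in 36 CTCF-AID libraries, with 0 columns left unassigned. The headers of the asynchronous columns are garbled, and their stage follows from the study's supplementary column names. TPM hold no counts, and the depth is unknown.

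Here log2(TPM + 1) was fitted with limma 3.58.1 (lmFit, eBayes with trend) in R 4.3.3 over the 12 asynchronous and mitotic CTCF-AID libraries, the replicate number being a block, with Benjamini-Hochberg adjustment over 10237 genes and a threshold of 0.05. The difference of differences between the arms is a contrast of the same fit. Equal replicate numbers were taken as pairs: deviations from group means correlated above 0.1 in 18 of 18 pairs (r 0.46 to 0.88). Between unequal numbers of the IAA libraries r ran from -0.59 to 0.21. Deviations cancel out within a group, so r between unequal numbers is lowered by construction and is no separate support. Within each stage and arm no replicate was a copy of another (0% identical values). Medians were compared by exact permutation tests. On simulated data the main fit called 99% of genes changed by 1 and 47.5% of those changed by 0.3 on the log2 scale. The contrast between arms called 96% and 9%, with 1.04% to 5.26% false among all these calls. The simulation changed 200 of 10237 genes, equally up and down, with no shift of whole libraries between stages. In the data far more genes were called between stages, mostly higher, so these shares need not hold there.

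Alternatives were 2 other pseudocounts (0.5 and 0.1), a minimum mean of 1 TPM, 2 other scalings, the fit without the block, fits on 6 and 36 libraries, a threshold of 0.1 with an absolute difference above 0.2, and leaving out each replicate. Genes were named by rule: Ctcf, the 10 highest and 10 lowest called genes and the 5 highest and 5 lowest for the arms, at a mean of at least 1 TPM, with the same direction in all 3 pairs for the first comparison, up to 2 called genes at each end of each of 37 lists, and the core pluripotency factors. The comparison, the lists and the rule were chosen with earlier results of these data known. The other microRNA genes and Dennd6b were added after their values were seen. Gene positions came from the vM21 release of Gencode (GRCm38, which is mm10; 10225 symbols matched), and sequences from RefSeq on GRCm38.p6 (11 of 12 microRNA genes). Tables were made with pandas 2.3.3, numpy 2.4.6 and scipy 1.17.1, and plots with matplotlib 3.10.9, all in Python 3.11.15. The list of snoRNA genes had 0 listed members.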

Additional observations from a re-analysis of the deposited data

Results flagged for a closer look

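In 10 named genes the difference between asynchronous and mitotic CTCF-AID cells was itself different with and without IAA by a test of that contrast (limma, adjusted p under 0.05), and each is given as the log2 difference with IAA minus that without. The values were 0.84 in Gys1, 0.66 in Prkag1, 0.60 in Dtwd2, 0.59 in Lsm11 and 0.55 in Nabp2. On the other side they were -1.30 in Nle1, -1.01 in Csnk2a2, -0.78 in Ttc5, -0.75 in Tab1 and -0.71 in Rpl36. All 10 lost the call without replicate 1, without replicate 3 and without the block, and 7 of them without replicate 2. After division by the library factor 5 lost it, and 1 each with a pseudocount of 0.5, a pseudocount of 0.1 and the fit of 36 libraries. The direction was kept in each case, and over all alternatives the values ran from 0.77 to 1.15 in Gys1, 0.61 to 0.89 in Prkag1, 0.54 to 0.76 in Dtwd2, 0.46 to 0.71 in Lsm11 and 0.48 to 0.81 in Nabp2, and from -1.84 to -1.23 in Nle1, -1.22 to -0.91 in Csnk2a2, -1.30 to -0.75 in Ttc5, -1.13 to -0.68 in Tab1 and -0.74 to -0.66 in Rpl36.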

How the results depend on the processing

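Genes higher in asynchronous cells numbered 4982 as reported, 3044 at a mean of at least 1 TPM, where 6463 genes were tested, 2824 at equal totals and 1658 without the replicate block. Genes lower numbered 859 as reported, 2169 at equal totals, 226 after division by the library factor and 166 without the block. For the difference between arms, 11 higher became 7 after division by the factor and 0 without the block, and 31 lower became 20 at 1 TPM, 50 at equal totals, 16 after division and 0 without the block. The median of all genes was 0.20 with a pseudocount of 0.5, 0.26 with 0.1, 0.032 at equal totals and 0.28 after division. Without single replicates the ranges were 3426 to 3936 higher, 439 to 742 lower, 0 to 1 and 0 to 5 between arms, and 0.14 to 0.16 for the median.

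Group medians changed sign at equal totals in lineage markers (-0.0059), replication (-0.044), protocadherin (-0.0042), oxidative phosphorylation (-0.012), proteasome (-0.097), heat shock (-0.095), Polycomb (-0.0072), polymerase II (-0.058), nuclear pore (-0.13) and splicing genes (-0.097). They did so after division by the factor in ribosome biogenesis (0.12) and p53 targets (0.12), at 1 TPM in 2-cell-like markers (-0.11) and nuclear pore genes (-0.0017), and without a replicate in protocadherin (-0.016 without replicate 3), p53 target (-0.12 to 0.051) and nuclear pore genes (-0.023 to 0.056). Among named genes Stag1 had -0.0087 and Pou5f1 -0.19 at equal totals, Slc16a1 0.019 after division, and Pou5f1 ran from -0.054 to 0.10 without single replicates. The cause was not tested. Of 149 named genes 81 kept direction and side of the threshold in every alternative, including the 20 highest and lowest. With no counts, counting error at low TPM is unknown, and 3 libraries a group limit small differences.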
